A study of Mus musculus with 16 samples.

Results

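The transcripts described here encode 10 factors of the machinery that makes the 3′ ends of mRNAs: Cpsf4l and its paralogue Cpsf4, and their complex partners Cpsf1, Cpsf2, Cpsf3, Cpsf6, Cstf1, Cstf2, Papola and Symplekin. They were found by gene name among the 28618 entries of the expression table. Of the 10 names, 9 were matched as written, Symplekin was taken by its mouse symbol Sympk, and each had 1 entry. Cpsf4l was chosen because its fall during maturation and its level in Psma7 cKO eggs were already known from these data. Its values in eggs are therefore described without a test, and it was tested only between genotypes in GV oocytes. The other 9 were taken as its paralogue and partners and were tested wherever they were expressed.

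The RNA-seq data cover germinal vesicle (GV) oocytes, whose meiosis is still arrested in its first prophase, and ovulated eggs at metaphase II (MII), with 4 biological replicates in each of 4 groups. In Psma7 cKO females, floxed Psma7 (fl/fl) is deleted by CRE under the Zp3 promoter, which is active in growing oocytes, so that other cells of the follicle keep the gene. WT females were the controls. All females were 3 to 4 weeks old and received 5 IU PMSG. GV oocytes were taken 44 h later, whereas eggs were taken 14 to 16 h after a further injection of hCG, with cumulus cells removed by 0.3% hyaluronidase. According to the labels each library holds 5 oocytes. The study reports that some ovulated Psma7 cKO oocytes were arrested before MII, some of them at the GV stage. The labels call the egg pools MII, and whether any held such oocytes was not tested here. The cDNA was primed with oligo-dT and amplified by Smart-seq2, and expression is given in FPKM, the fragments of an mRNA divided by its length and by the mapped total of its library. It is a share of the library corrected for length. This share can rise when other mRNAs fall, so rises and falls with maturation are given as changes of the share, not of the amount. Levels of different genes are compared on this scale, although tail length and the isoform used for the length can also move them. A smaller amount of an mRNA per cell and a shorter poly(A) tail that is less readily primed cannot be told apart.

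Psma7 itself, which encodes an α-subunit of the 20S proteasome core, was at 142 to 201 FPKM in GV oocytes of WT and at 11.1 to 18.0 FPKM in those of Psma7 cKO females. WT eggs had 97.7 to 172 FPKM, and the Psma7 cKO egg libraries 1 to 4 had 13.6, 50.3, 35.0 and 59.9 FPKM, so the genotypes did not overlap at either stage. The steps between low values put the depth at about 10.6 to 15.7 M fragments per library (median 13.6). All 4 oocyte markers (Zp3, Gdf9, Bmp15 and Ddx4) were at 1 FPKM or more in every group. Of 10 cumulus and granulosa markers, 8 were below 1 FPKM in every group, with Cyp19a1 and Kitl above it. The summed level of the 10 was 12.0 to 14.2 FPKM in GV oocytes of WT, 14.5 to 17.3 in those of Psma7 cKO, and 17.2 to 21.0 and 19.1 to 20.7 FPKM in their eggs, and its part in the results was not tested.

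The 3′ end of an mRNA is made by cleavage of the nascent transcript and addition of a poly(A) tail. CPSF recognises the poly(A) signal through CPSF4, which is held with CPSF1 in its recognition module, and cuts through CPSF3, which works with CPSF2 and the scaffold Symplekin. CstF binds the GU-rich element downstream of the cut, cleavage factor I with its CPSF6 subunit binds upstream, and the poly(A) polymerase PAPOLA adds the tail. Fully grown oocytes are transcriptionally silent and live on stored mRNAs, many of which are degraded during maturation. Others have their tails lengthened in the cytoplasm, where CPSF and CPEB1 act again.

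Cpsf4l lies on chromosome 11 (mm10, 113698172 to 113710017, minus strand) and Cpsf4 on chromosome 5 (145167213 to 145182041, plus strand). In the GENCODE models with the longest coding sequence, both have 8 exons, and exons 2 to 5 have the same lengths, 51, 153, 96 and 94 nt. Their coding exon 3 is printed to show how far the paralogues differ where they can be aligned without a gap. Capitals mark the bases that are the same at the same position, 108 of 153 (70.6%), and both are given in the sense of the mRNA. Cpsf4l exon 3 is at chr11:113706417-113706569 and Cpsf4 exon 3 at chr5:145173307-145173459.
Cpsf4l: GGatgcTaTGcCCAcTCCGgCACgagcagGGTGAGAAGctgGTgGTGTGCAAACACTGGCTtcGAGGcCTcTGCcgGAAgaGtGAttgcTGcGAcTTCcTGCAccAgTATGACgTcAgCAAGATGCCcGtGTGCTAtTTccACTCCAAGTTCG
Cpsf4: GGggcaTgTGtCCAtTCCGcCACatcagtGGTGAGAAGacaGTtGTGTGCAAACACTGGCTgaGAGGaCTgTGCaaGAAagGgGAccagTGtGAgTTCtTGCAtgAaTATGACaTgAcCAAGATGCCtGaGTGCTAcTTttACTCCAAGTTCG
The longest run shared by the whole transcripts was 17 nt, and neither shared a 50-mer with a transcript of any other gene. Reads of the paralogues are therefore distinct at the length of a 50-base read. Among the others, 1.57% of the 50-mers of Sympk and 1.04% of those of Papola also occur in another gene. Exons of Cpsf1, Cpsf2, Cpsf3 and Cstf2 overlap those of Adck5, Ndufb1-ps, Itgb1bp1 and Nox1 on the opposite strand. The Smart-seq2 protocol does not mark strand, so reads from these overlaps cannot be told apart.

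Cpsf4l was by far the most abundant of the 10 in GV oocytes. Its levels were 110, 93.0, 101 and 116 FPKM in the 4 WT libraries and 116, 111, 98.2 and 121 FPKM in the Psma7 cKO libraries. The groups overlapped, and limma gave a log2 fold change of 0.09 with SE 0.10 (cKO minus WT, adjusted p = 0.811). At 105 ± 10.0 FPKM in WT (mean ± SD, n = 4), Cpsf4l was above 97.5% of all entries of the table. Its paralogue Cpsf4, the zinc finger subunit that contacts the poly(A) signal, was measured at 18.8, 18.4, 12.1 and 21.2 FPKM in WT GV oocytes and at 15.2, 20.4, 20.4 and 21.0 FPKM in those lacking Psma7. The replicate 3 library of WT and the replicate 1 library of Psma7 cKO were the low ones, and the genotypes overlapped (log2 fold change 0.14, SE 0.18, adjusted p = 0.826 by limma). The mRNA of the paralogue thus stood at 5.05 to 8.35 times the level of Cpsf4 in WT GV libraries and 4.82 to 7.63 times in Psma7 cKO GV libraries. This ratio did not differ detectably between genotypes (log2 difference -0.056, cKO minus WT, p = 0.714 by an exact permutation test, two-sided, n = 4 per group), and its direction turned when replicate 3 of WT (0.097) or replicate 3 of Psma7 cKO (0.035) was left out.

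In eggs the levels of both paralogues were lower, and Cpsf4l was no longer the highest of the 10. WT eggs had 6.42, 8.08, 7.83 and 5.65 FPKM of Cpsf4l, and Psma7 cKO eggs had 19.0, 12.1, 32.7 and 17.4 FPKM. Every Psma7 cKO library was above every WT library, with replicate 3 the highest and replicate 2 the lowest. The means were 6.99 ± 1.16 and 20.3 ± 8.79 FPKM (SD, n = 4 each), a ratio of 2.90, and the log2 fold change was 1.46. Without replicate 3 of Psma7 cKO the log2 fold change was 1.20, the lowest when libraries were left out in turn, and the highest was 1.68. From GV oocyte to egg the mean of Cpsf4l was 15.0-fold lower in WT and 5.49-fold lower in Psma7 cKO (log2 fold changes -3.92 and -2.55). By the estimated depth, Cpsf4l rested on about 103 to 163 fragments in WT egg libraries and 213 to 605 in Psma7 cKO egg libraries.

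Cpsf4 had the same order of groups at a lower level. WT eggs had 1.63, 2.37, 2.46 and 2.202 FPKM of Cpsf4, and Psma7 cKO eggs had 4.37, 3.24, 5.06 and 4.29 FPKM, without overlap. Among the 8 members tested in eggs, Cpsf4 was the 1 that passed the test (log2 fold change 0.97, SE 0.19, adjusted p = 0.0281 by limma), higher in Psma7 cKO. Of all 9492 entries tested in eggs, 8.02% were called, 620 of them higher (6.53%) and 141 lower (1.49%). After rescaling by the median ratio these were 537 and 223. With libraries left out in turn, the numbers of higher and lower entries ran from 3 and 0 (without replicate 3 of WT) to 1024 and 136 (without replicate 2 of Psma7 cKO), so this background rests on single libraries as well. The call of Cpsf4 was lost without any 1 of the 4 WT libraries or without replicate 1 of Psma7 cKO (adjusted p = 0.0570 to 0.0770), while the log2 fold change stayed between 0.84 and 1.09 in all 8 of these fits. About 35 to 62 fragments lay behind it in each WT egg library and 73 to 120 in each Psma7 cKO egg library.

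**Figure D1:**
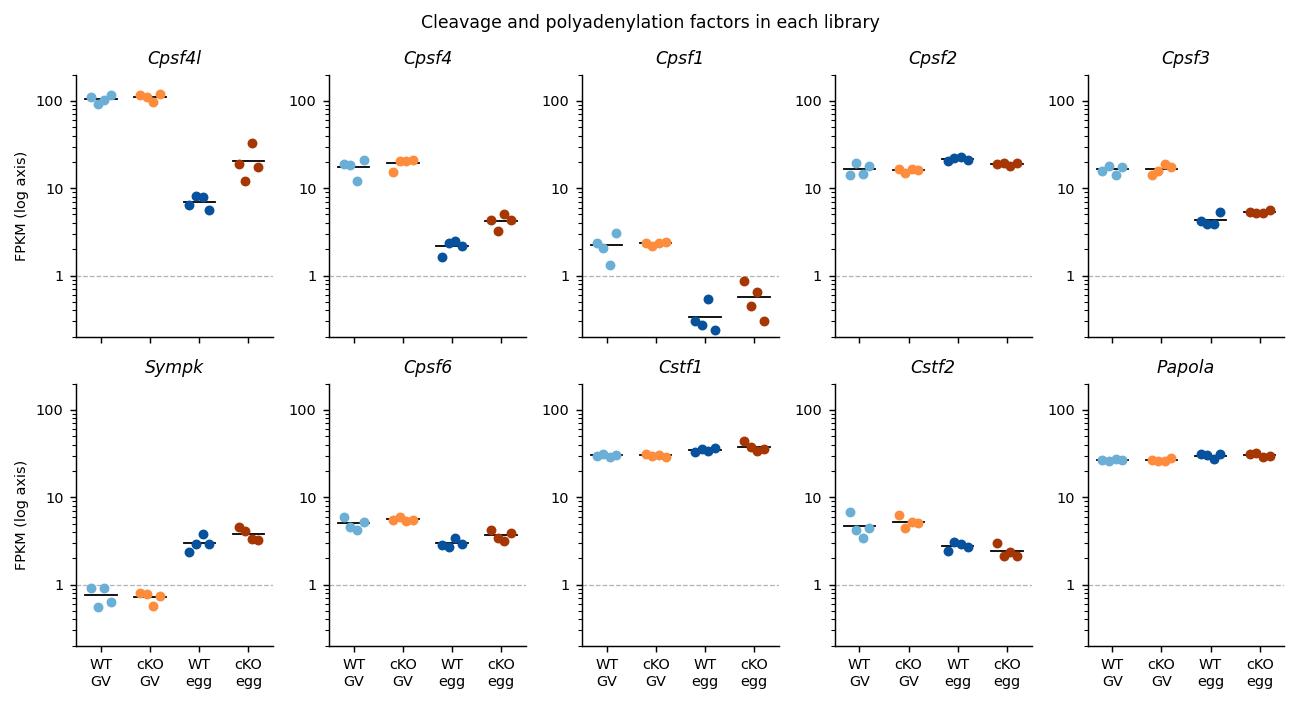
Expression of the 10 factors in FPKM (log axis) in each of the 16 libraries, with 1 point per library in the order of replicates and a line at the group mean. The dashed line marks 1 FPKM. Cpsf4l (group means of 105, 112, 6.99 and 20.3 FPKM from left to right) and Cpsf4 were lower in eggs, Sympk was higher in eggs, and Cpsf2, Cstf1 and Papola stayed within a narrow range.

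The ratio of the paralogues was lower in WT eggs than in GV oocytes. In the WT egg libraries Cpsf4l stood at 3.95, 3.41, 3.19 and 2.57 times the level of Cpsf4, below every WT GV library. In the Psma7 cKO egg libraries the ratios were 4.34, 3.73, 6.46 and 4.06, so that they overlapped with both the WT eggs and the GV oocytes. As Cpsf4l was chosen on its egg values, these ratios were not tested.

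**Figure D2:**
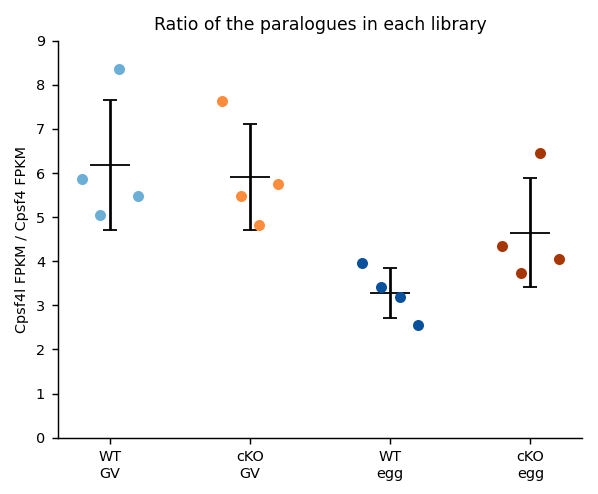
Ratio of the FPKM of Cpsf4l to that of Cpsf4 in each of the 16 libraries, with the mean and SD of each group (n = 4). The means in GV oocytes were 6.18 (WT) and 5.92 (Psma7 cKO), and those in eggs were 3.28 and 4.65.

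The FPKM of each mRNA in eggs was also expressed as a percent of its mean FPKM in the GV oocytes of the same genotype. This compares shares of a library and does not measure the amount left. For Cpsf4l the WT eggs were at 5.38% to 7.69%, while the Psma7 cKO eggs 1 to 4 were at 17.0%, 10.8%, 29.3% and 15.6%. For Cpsf4 the WT eggs were at 9.23% to 13.9% and the Psma7 cKO eggs at 16.8% to 26.3%. With values below 1 FPKM set to 1, 397 entries had a mean more than 10-fold lower in WT eggs than in WT GV oocytes. Cpsf4l is 1 of these, and no other member is. Only entries with a WT GV mean above 10 FPKM could enter this class. The median of the class was 6.62% to 7.27% in the WT egg libraries. As the class was picked on these same WT libraries, a low share in them was fixed by the choice. In the Psma7 cKO egg libraries 1 to 4 the class median was 10.1%, 8.32%, 29.9% and 15.4%. For the class as for Cpsf4l, replicate 3 was the highest and replicate 2 the lowest, and the part of this library-wide difference in the level of Cpsf4l was not tested. Within the class, Cpsf4l was at the 48.4th to 87.4th percentile of the Psma7 cKO egg libraries. Its ratio of Psma7 cKO to WT egg means, 2.90, compares with a median of 2.50 in the class (quartiles 1.86 and 3.42). Picking entries for low WT egg values can itself raise this ratio, so these values are set side by side only.

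**Figure D3:**
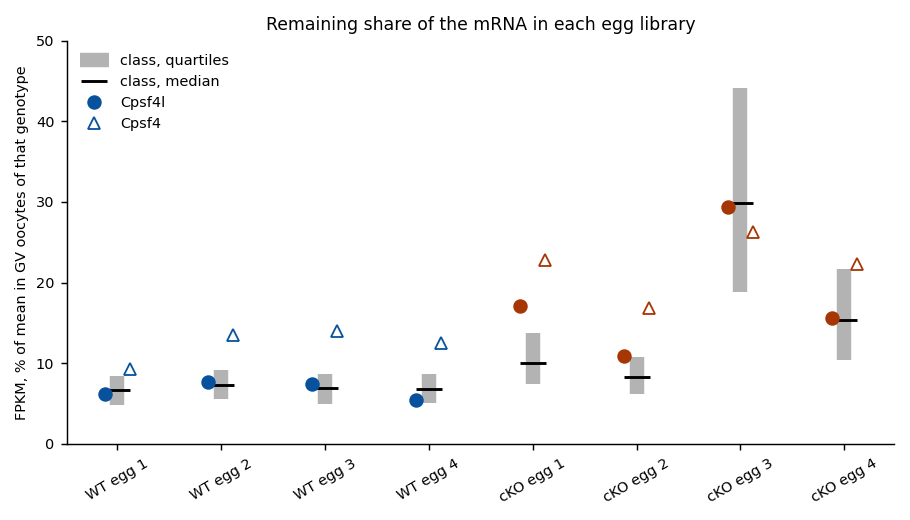
FPKM in each egg library as a percent of the mean in GV oocytes of the same genotype, for Cpsf4l (filled circles) and Cpsf4 (open triangles). Grey bars span the quartiles of the 397 entries that were over 10-fold lower in WT eggs, with the median as a black line. In Psma7 cKO egg 3, Cpsf4l (29.3%) and the class median (29.9%) were both higher than in the other libraries.

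Across the 16 libraries, the entries whose log2 pattern was most like that of Cpsf4l, among 10614 others with a mean of at least 1 FPKM, were Gmpr, Mdh2, Rnf181, Zp3 and Grhpr (Pearson's r 0.995 to 0.997). These values mainly reflect the difference between GV oocytes and eggs, which all libraries of a stage share. Mdh2, a mitochondrial malate dehydrogenase, had means of 150 (WT) and 153 FPKM (Psma7 cKO) in GV oocytes and 7.99 and 26.9 FPKM in eggs. Zp3, a protein of the zona pellucida, was far more abundant, with 3977 and 4146 FPKM in GV oocytes and 406 and 948 FPKM in eggs. Within the complex Cpsf4 was the most alike (r = 0.984), yet 231 entries had a higher r. Cpsf3 (0.95), Cpsf6 (0.90), Cpsf1 (0.88) and Cstf2 (0.81) followed, whereas Cstf1, Papola, Cpsf2 and Sympk ran opposite to Cpsf4l with r of -0.73, -0.80, -0.85 and -0.88.

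Between the genotypes in GV oocytes, no member passed the test. Of the 10, 9 reached the mean of 1 FPKM needed for the test, and limma called 0 of them, against 0.118% of 11062 entries (11 higher and 2 lower, or 5 and 2 after rescaling by the median ratio). At an unadjusted p under 0.05, 843 entries were higher and 339 lower, and none of the members was among these. The largest log2 fold change of a member was 0.20, for Cstf2 (SE 0.20, adjusted p = 0.789). The median over the 9 members was 0.09, and that over all entries was 0.04. The genotypes overlapped for all 10, beside 6.67% of entries whose groups did not overlap.

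**Figure D4:**
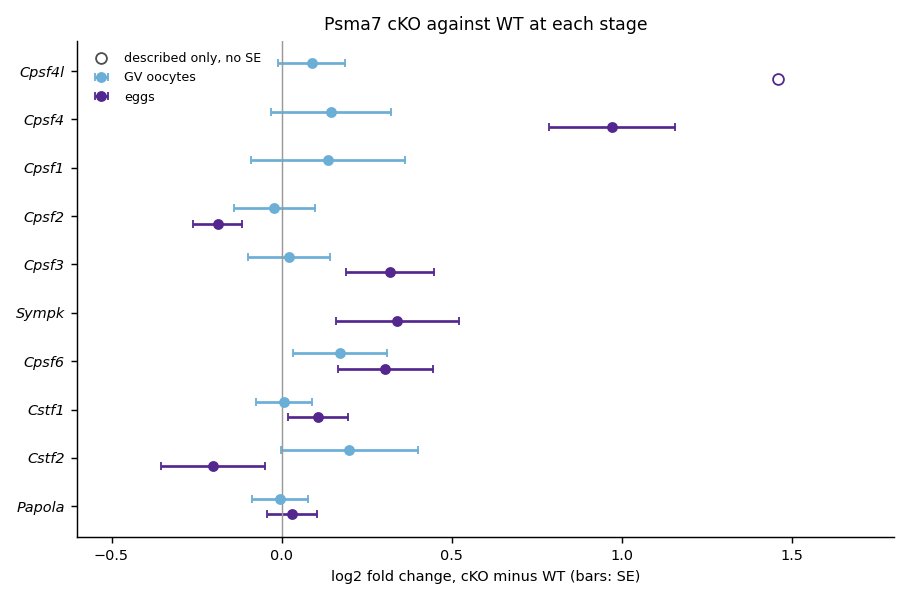
Log2 fold change of Psma7 cKO against WT in GV oocytes (light) and eggs (dark), with the SE of limma as bars. The open circle is Cpsf4l in eggs, which is described without an SE, and points are missing for Cpsf1 in eggs and Sympk in GV oocytes, whose means were below 1 FPKM. Cpsf4l (1.46) and Cpsf4 (0.97) in eggs lay apart from the other members, which stayed between -0.20 and 0.34.

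The recognition module also contains Cpsf1, its large scaffold subunit, which was scarce. Cpsf1 ranged from 1.33 to 3.09 FPKM in GV oocytes of WT and from 2.18 to 2.42 FPKM in those of Psma7 cKO females. The WT eggs had 0.305, 0.273, 0.541 and 0.235 FPKM and the Psma7 cKO eggs 0.875, 0.451, 0.642 and 0.303 FPKM, so the genotypes overlapped and every egg library was below every GV library. Cpsf1 reached the mean of 1 FPKM for the test through its GV level alone, and values under 1 FPKM, which are all of its egg values, were set to 1 for the fit. Its log2 fold changes with maturation, -1.09 in WT and -1.22 in Psma7 cKO, are therefore given as a description, and with a floor of 0.1 FPKM they were -2.73 and -2.15. An estimated 14 to 57 fragments lay behind each egg library.

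Members of the cleavage module went in opposite directions. Cpsf3, the endonuclease, was at 14.2 to 18.9 FPKM over the 8 GV libraries. The WT eggs had 4.18, 3.88, 3.90 and 5.31 FPKM and the Psma7 cKO eggs 5.39, 5.21, 5.13 and 5.64 FPKM. It fell in WT (log2 fold change -1.93, SE 0.13, adjusted p = 2.0e-07 by limma) and in Psma7 cKO (-1.63, SE 0.11, adjusted p = 3.5e-06). Replicate 4 of WT brought the genotypes to overlap in eggs, where the log2 fold change was 0.32 (SE 0.13, adjusted p = 0.137).

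Cpsf2, the partner of Cpsf3 without nuclease activity, was higher in eggs. Its levels were 14.3, 19.2, 14.7 and 17.8 FPKM in WT GV oocytes and 20.4, 21.9, 23.0 and 20.8 FPKM in WT eggs. In Psma7 cKO they were 16.6, 15.0, 16.8 and 16.1 FPKM in GV oocytes and 19.2, 19.2, 18.0 and 19.2 FPKM in eggs. The rise was small, with a log2 fold change of 0.40 in WT (SE 0.11, adjusted p = 0.00770) and 0.23 in Psma7 cKO (SE 0.08, adjusted p = 0.0321 by limma). The latter call was lost without replicate 2 or 4 of the GV oocytes or replicate 1, 2 or 4 of the eggs (adjusted p = 0.0569 to 0.0880). In eggs every Psma7 cKO library was below every WT library, but the difference did not pass the test (log2 fold change -0.19, SE 0.07, adjusted p = 0.122). Non-overlapping groups were found for 13.6% of the entries tested in eggs with Psma7 cKO higher and for 7.06% with it lower.

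Symplekin, the scaffold of the cleavage module, had the largest upward log2 fold change of the 10 with maturation. Among GV libraries, Sympk was at 0.924, 0.551, 0.908 and 0.638 FPKM in WT and at 0.806, 0.791, 0.576 and 0.734 FPKM with Psma7 deleted, the lowest level of any member. The WT eggs had 2.35, 2.94, 3.84 and 2.92 FPKM and the Psma7 cKO eggs 4.52, 4.09, 3.32 and 3.23 FPKM. All egg libraries were above all GV libraries, and the genotypes overlapped at both stages. Sympk reached the mean of 1 FPKM for the test through its egg level alone, with all GV values below the floor, so its change is given as a description. The log2 fold change from GV oocyte to egg was 1.57 in WT and 1.91 in Psma7 cKO, and with a floor of 0.1 FPKM 2.01 and 2.38. The egg means were 3.99 and 5.22 times the GV means on the FPKM scale. About 30 to 58 fragments were estimated per GV library and 120 to 274 per egg library. Between genotypes in eggs the log2 fold change was 0.34 (SE 0.18, adjusted p = 0.244).

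Cpsf6, a subunit of cleavage factor I, was at 4.20 to 6.00 FPKM in GV oocytes of both genotypes and at 2.70 to 4.17 FPKM in eggs. It fell by 0.75 on the log2 scale in WT (SE 0.15, adjusted p = 6.7e-04) and by 0.62 in Psma7 cKO (SE 0.12, adjusted p = 0.00144 by limma). The egg groups overlapped, with a log2 fold change of 0.30 between genotypes (SE 0.14, adjusted p = 0.180).

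The CstF subunits differed from each other. Cstf1, its WD-repeat subunit, was the second most abundant member in GV oocytes, at 28.9 to 31.4 FPKM over all 8 libraries. The WT eggs had 33.0, 35.5, 34.0 and 36.7 FPKM and the Psma7 cKO eggs 43.6, 37.4, 33.5 and 36.0 FPKM, so that it was the most abundant of the 10 there. The small rise passed the test in WT (log2 fold change 0.21, SE 0.08, adjusted p = 0.0251) and in Psma7 cKO (0.31, SE 0.10, adjusted p = 0.0161 by limma). In WT it was lost without replicate 2 or 4 of the eggs (adjusted p = 0.0647 and 0.0634). Cstf2, the X-linked subunit that binds the GU-rich element, was at 3.45 to 6.75 FPKM in GV oocytes and at 2.15 to 3.05 FPKM in eggs. It fell by 0.73 on the log2 scale in WT (SE 0.19, adjusted p = 0.00517) and by 1.13 in Psma7 cKO (SE 0.16, adjusted p = 1.6e-04 by limma).

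Papola, the poly(A) polymerase, had the smallest log2 fold changes with maturation. Over the 8 GV libraries it was at 25.7 to 27.8 FPKM. The WT eggs had 30.9, 30.2, 27.1 and 31.4 FPKM and the Psma7 cKO eggs 31.5, 32.1, 29.0 and 29.5 FPKM. The log2 fold change from GV oocyte to egg was 0.16 in WT (SE 0.08, adjusted p = 0.0802) and 0.20 in Psma7 cKO (SE 0.08, adjusted p = 0.0434 by limma). The WT value passed without replicate 3 of the eggs (adjusted p = 0.0397), and the Psma7 cKO value did not pass when any 1 of 6 of the 8 libraries was left out, which are replicates 1 to 3 of the GV oocytes and 1, 2 and 4 of the eggs (adjusted p = 0.0557 to 0.124).

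**Figure D5:**
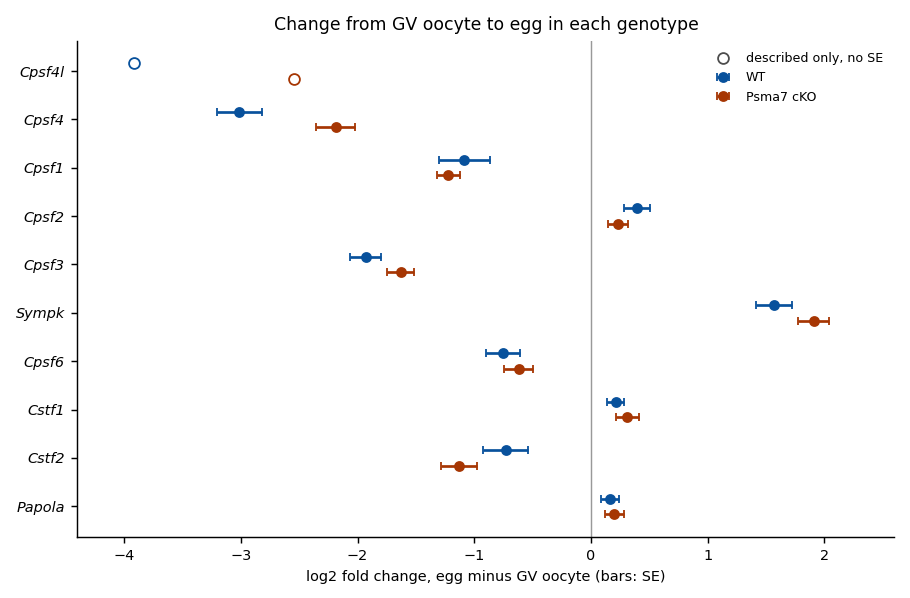
Log2 fold change from GV oocyte to egg in WT and Psma7 cKO, with the SE of limma as bars. The open circles are Cpsf4l, described without an SE (-3.92 in WT and -2.55 in Psma7 cKO). Cpsf4, Cpsf3, Cpsf1, Cpsf6 and Cstf2 lie below 0 and Cpsf2, Sympk, Cstf1 and Papola above 0 in both genotypes.

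Counted over the 7 tested members with means of at least 1 FPKM at both stages, 2 rose with maturation in WT (Cpsf2 and Cstf1) and 4 fell (Cpsf4, Cpsf3, Cpsf6 and Cstf2). In Psma7 cKO 3 rose (Cpsf2, Cstf1 and Papola), and Cpsf4, Cpsf3, Cpsf6 and Cstf2 fell. The fit also called Sympk higher and Cpsf1 lower in both genotypes, but these members entered the test only through the stage where they were high, and their calls are left out of the counts. Of all entries, 78.5% were called in WT (26.1% higher and 52.4% lower) and 74.0% in Psma7 cKO (23.0% higher and 51.0% lower), so that being called was common. The median log2 fold change of these 7 members was -0.73 in WT and -0.62 in Psma7 cKO, beside -0.44 and -0.42 over all entries. The set of all entries was not limited to those of at least 1 FPKM at both stages. Over all 9 tested members, with Sympk and Cpsf1, the medians were also -0.73 and -0.62. With libraries rescaled by a median ratio (that of the expressed entries), the medians of all entries moved to -0.21 and -0.22, and each tested member kept its direction. The small upward values grew by more than 1.5 times under this scaling, to 0.63 and 0.43 for Cpsf2, 0.44 and 0.51 for Cstf1 and 0.39 and 0.40 for Papola (WT and Psma7 cKO). By the rule of a more than 3-fold difference between means, Sympk was higher and Cpsf4l, Cpsf4 and Cpsf3 were lower in both genotypes. Sympk was not past it in WT without replicate 3 of the eggs, nor was Cpsf3 in Psma7 cKO after median-ratio rescaling or without replicate 3 of the GV oocytes. That rule was passed by 1.07% of entries upwards and 22.1% downwards in WT, and by 0.856% and 17.2% in Psma7 cKO. Between genotypes in eggs, where 1.76% of entries passed it upwards, 0 members did, and Cpsf4l with a ratio of 2.90 was just under it. Libraries are shared between the comparisons of genotypes and of stages, so their values are given side by side only.

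Whether the change with maturation differed between genotypes was tested as an interaction over all 16 libraries. None of the 9 members tested was called, against 1.26% of 10615 entries (114 higher and 20 lower, from 37 and 4 without replicate 3 of the Psma7 cKO GV oocytes to 605 and 46 without replicate 2 of their eggs), and at an unadjusted p under 0.05, where 1347 entries were higher and 534 lower, only Cpsf4 among them was included. Its interaction was 0.83 on the log2 scale (SE 0.27, adjusted p = 0.122 by limma) and was called without replicate 2 of the Psma7 cKO eggs (0.95, adjusted p = 0.0432). For Cpsf4l the corresponding difference was 1.37, as a description. Sympk and Cpsf1 entered this test only through the stage where they were high, with every value of the other stage set to 1. Their interaction values, 0.34 and -0.14, therefore only repeat the size of their genotype difference at that stage. The absence of a call for them says nothing of an interaction.

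The order of levels changed accordingly. In WT GV oocytes the order of means was Cpsf4l, Cstf1, Papola, Cpsf4, Cpsf2, Cpsf3, Cpsf6, Cstf2, Cpsf1 and Sympk. The library ranges of Cpsf4, Cpsf2 and Cpsf3 overlapped, as did those of Cpsf6 and Cstf2, while the other neighbours did not. In WT eggs it was Cstf1, Papola, Cpsf2, Cpsf4l, Cpsf3, Sympk, Cpsf6, Cstf2, Cpsf4 and Cpsf1, with overlapping ranges between neighbours from Sympk down to Cpsf4. Cpsf4l therefore moved from the top of the order to below Papola and Cpsf2. In Psma7 cKO eggs Cpsf4l (12.1 to 32.7 FPKM) overlapped with Papola above it and with Cpsf2 below it.

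Other factors of 3′ end processing also went in both directions. Of 12 further factors, Papolb was not analysed here, and 10 of the other 11 reached the mean of 1 FPKM in the maturation comparisons. In WT 2 rose with maturation, and Fip1l1, Nudt21, Cstf3 and Papolg fell. In Psma7 cKO the same 2 rose, and Fip1l1, Nudt21, Cstf3, Papolg and Clp1 fell. This stands beside 26.1% (WT) and 23.0% (Psma7 cKO) of all entries that rose and 52.4% and 51.0% that fell. The fit also called Clp1 lower in WT and Rbbp6 lower in Psma7 cKO. Both calls are left out, as they entered through the GV level alone, with egg means of 0.305 and 0.755 FPKM. The 2 that rose were Wdr33, which reads the poly(A) signal together with CPSF4, and Pabpn1, the nuclear poly(A)-binding protein. Wdr33 was at 33.5 ± 1.95 FPKM in WT GV oocytes and 73.0 ± 1.98 FPKM in WT eggs (mean ± SD, n = 4; log2 fold change 1.12, SE 0.07, adjusted p = 1.5e-07 by limma). It was thus above Cpsf4 in every group. Clp1, of cleavage factor II, had the largest downward change, from 4.65 ± 0.62 to 0.305 ± 0.173 FPKM in WT. It was tested through its GV level alone, as its WT egg values were all below 1 FPKM, so its log2 fold change of -2.21 is a description and was -4.11 with a floor of 0.1 FPKM.

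In eggs 1 of 8 tested factors of that list differed between genotypes, beside 8.02% of all entries. Nudt21, the small subunit of cleavage factor I and partner of Cpsf6, was at 8.59 ± 1.22 FPKM in WT eggs and at 18.2 ± 5.37 FPKM in those lacking Psma7 (mean ± SD, n = 4; log2 fold change 1.05, SE 0.20, adjusted p = 0.0281 by limma). In GV oocytes it was at 31.5 ± 7.18 and 40.4 ± 8.69 FPKM, and it fell with maturation in both genotypes. Its call in eggs was lost without any 1 of the WT libraries or without replicate 1 of Psma7 cKO (adjusted p = 0.0527 to 0.0865 by limma). Fip1l1, a further CPSF subunit, fell from 64.0 ± 10.7 to 20.6 ± 2.87 FPKM in WT, and its genotypes overlapped in eggs.

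Histone pre-mRNAs are cut by CPSF2, CPSF3 and Symplekin without polyadenylation, together with factors of their own. Of 5 such factors, 2 rose and 2 fell with maturation in WT, and 2 rose and 3 fell in Psma7 cKO, where 78.5% (WT) and 74.0% (Psma7 cKO) of all entries were called. Slbp, which binds the histone stem-loop, was the most abundant, at 1257 ± 129 FPKM in WT GV oocytes and 2538 ± 179 FPKM in WT eggs. In eggs it was lower in Psma7 cKO, at 2044 ± 149 FPKM (log2 fold change -0.31, SE 0.08, adjusted p = 0.0478 by limma), and it was the 1 called among the 5, beside 8.02% of all entries. The call was lost after rescaling by the median ratio (adjusted p = 0.0543), without the trend (0.0745), with a replicate block (0.0720) and when any library but replicate 2 of Psma7 cKO was left out (0.0567 to 0.126). Of 4 factors of cytoplasmic polyadenylation, Papd4, the cytoplasmic poly(A) polymerase, rose with maturation in both genotypes, whereas Cpeb1, Pabpc1l and the deadenylase Parn fell. Cpeb1 was at 25.6 ± 1.48 FPKM in WT eggs and at 38.9 ± 9.66 FPKM in those lacking Psma7, without overlap (log2 fold change 0.57, SE 0.16, adjusted p = 0.0601 by limma), and limma called 0 of the 4 between genotypes in eggs, with Cpeb1 and Pabpc1l at an unadjusted p of 0.00646 and 0.0128. Cpeb1 was called without replicate 4 of Psma7 cKO (adjusted p = 0.0326).

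The annotated 3′ ends of the members were searched for the signals that these factors read. AATAAA, the canonical poly(A) signal, was found in the last 50 bases of the transcript models of Cpsf2, Sympk, Cpsf6, Cstf1 and Cstf2, and ATTAAA, its common variant, in that of Cpsf4. Among 21818 coding transcripts, 57.4% had AATAAA and 15.8% ATTAAA in this window, read in the sense of the mRNA. The models of Cpsf4l, Cpsf1, Cpsf3 and Papola held neither. A cytoplasmic polyadenylation element, searched as TTTTAT or TTTTAAT in the last 100 bases, occurred in Cstf1 alone, beside 16.2% of all transcripts. Of the members with AATAAA, Cpsf2, Sympk and Cstf1 were higher in eggs, and Cpsf6 and Cstf2 were lower there. The windows of Cpsf4, lower in eggs, and of Sympk and Cstf1, higher there, are shown with the hexamer in capitals.
Cpsf4 (mm10, chr5:145182010-145182039, plus strand): tctatgaggttgATTAAAaagcttgttttt
Sympk (mm10, chr7:19054572-19054601, plus strand): tgccttaacacaAATAAAagagggcgtagc
Cstf1 (mm10, chr2:172382412-172382441, plus strand): tgtgatttctaaAATAAAttttttttatat
These are matches of letters in 1 annotated transcript per gene, and the ends used in oocytes were not measured here.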

How the data were processed

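The deposited table gives FPKM for 28618 entries and 27987 gene names in 16 libraries, as the authors calculated it with Cufflinks 2.2.1. The processing notes of the submitters also name TopHat2 2.1.1 and mm10, and the gene annotation is not given in the sources used here. Values below 1 FPKM are still present in it. It holds 0 entries of the ERCC spike-in added at lysis, so absolute amounts were not analysed here. The study's methods give another pool size than the labels, whose 5 is used here.

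Values below 1 FPKM were set to 1, and entries averaging 1 FPKM or more in a comparison were fitted on the log2 scale with limma 3.58.1 (R 4.3.3, intensity trend). P-values were Benjamini-Hochberg adjusted over all entries tested, with a threshold of 0.05. They measure the spread between pools labelled as biological replicates. The interaction was fitted on 16 libraries and each other comparison on its 8. The ratio of Cpsf4l to Cpsf4 was compared by a two-sided exact permutation test. Depth was estimated from steps between low FPKM values and transcript lengths, and fragment numbers are estimates from it. Exons, positions and sequences came from GENCODE M21 on GRCm38, the mm10 build, using for each gene the coding transcript with the longest coding sequence. The fits were also run with the floor at 0.1 FPKM, with 1 FPKM added in its place, and with median-ratio rescaling, other filters, no trend, a replicate block, 1 fit of all 16 libraries, entries summed by name and libraries left out in turn. The fits and the depth estimate were tested on simulated data. Every member and any gene of the lists of 12, 5 and 4 factors could be named. The members and lists were chosen with earlier results of these data known. Python 3.11.15 with pandas 2.3.3 and scipy 1.17.1 was used outside limma.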

Additional observations from a re-analysis of the deposited data

Results flagged for a closer look

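In 40 groups of 4 libraries (10 members in 4 groups), 2 held a library far from the other 3, and chance alone gives about 1 in 20. Cpsf4 in Psma7 cKO GV oocytes was at 15.2 FPKM in replicate 1, while the other 3 libraries lay between 20.4 and 21.0 FPKM, and this gap was 0.888 of the range of the group. Cpsf2 in Psma7 cKO eggs was at 18.0 FPKM in replicate 3 and at 19.2 FPKM in the others, a gap of 0.949 of a narrow range. That egg library is also the one in which Cpsf4l and the 397 mRNAs that decline in WT were highest.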

How the results depend on the processing

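Of 792 refitted values of tested members, 740 kept their direction and side of the threshold, 25 were no longer called, 4 became called and 23 changed sign, each of the 23 uncalled. The 792 include the maturation and interaction refits of Sympk and Cpsf1, which entered only through the stage where they were high. For these refits, keeping the direction or call says little, so the 740 is a description. With a mean of at least 5 FPKM, the calls among members were 0 in eggs, with Cpsf4 no longer tested. For maturation they were 4 in WT and 5 in Psma7 cKO, with 5 tested. Cpsf4 (egg means of 2.16 FPKM in WT and 4.24 in Psma7 cKO) and, in WT, Cpsf3 (4.32 FPKM) passed this filter through their GV level alone. These maturation counts are therefore a description. With this filter 572 entries were higher and 172 lower of all 5459 tested in eggs. For maturation 1989 were higher and 3123 lower of 6241 in WT, and 1826 and 3136 of 6417 in Psma7 cKO. Replicate numbers did not pair the libraries (r between deviations -0.50 to 0.29), and a replicate block gave 0 calls in eggs, with adjusted p = 0.0600 for Cpsf4 (0.00361 to 0.0770 over its alternatives) and 101 higher and 7 lower entries in all. The block also ended the maturation calls of Cstf1 in WT (0.0840) and of Cpsf2 (0.108) and Papola (0.130) in Psma7 cKO and the egg call of Slbp (0.0720), while Papola in WT was called after median-ratio rescaling (0.00152). Papola in Psma7 cKO was not called without the trend (0.0651). With libraries left out in turn, calls were 0 to 1 in eggs and 0 to 1 for the interaction (Cpsf4, without replicate 2 of Psma7 cKO eggs). For the log2 ratio of Cpsf4l to Cpsf4 in GV oocytes they gave -0.19 to 0.097, and a ratio to the geometric mean of the other members gave 0.019. Members past the fold rule in eggs were 0 to 1 with libraries left out (Cpsf4l, without replicate 2 or 3 of WT or 2 or 4 of Psma7 cKO) and 1 at 2-fold. At 5-fold they were 2 for WT and 1 for Psma7 cKO maturation. The shares of all entries at 2-fold and 5-fold were not calculated, so these counts are a description. Rescaling by the median ratio turned Cpsf3 (-0.018) and Cstf1 (-0.033) in GV oocytes and Papola (-0.038) in eggs. The interaction of Cpsf1 was 0.58 with a floor of 0.1 FPKM and 0.14 with 1 FPKM added. With libraries left out, log2 fold changes in GV oocytes were -0.087 to 0.32 for Cpsf1, -0.026 to 0.25 for Cpsf4, -0.087 to 0.056 for Cpsf2, -0.043 to 0.093 for Cpsf3, -0.014 to 0.027 for Cstf1 and -0.029 to 0.010 for Papola. They were -0.016 to 0.054 for Papola in eggs, and -0.32 to 0.087 for Cpsf1 and -0.011 to 0.060 for Papola in the interaction. The cause of these changes was not tested. Without a filter, most residual variances were 0, and that fit is unreliable. FPKM gives no exact counts, so no counting interval was attached, and members under 1 FPKM rest on few fragments.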
